A study of Mus musculus with 6 samples.

Results

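The genes described here are Myc, its relatives and partner Max, and the genes whose products build ribosomes or supply polyamines to growing cells, 47 in all. The rule that picks them is a list of symbols and applies no threshold to measured values, but the list was drawn up with earlier results of these data known. Of the 47, 46 had a row in the deposited table of 23279 named genes. Npm3 had none and is not analysed here. Expression was profiled on arrays in primary myoblasts from limb muscle of C57bl6N mice, with 3 control and 3 activated cultures. Every culture carried the tamoxifen-inducible Pax7-CreERT2 recombinase, which acts only in cells that express Pax7, and 1 beta-catenin allele with loxP sites around exon 3. Control cultures received ethanol, and activated cultures received 4-OH tamoxifen in ethanol, which deletes exon 3 and leaves a beta-catenin protein that escapes degradation. Tamoxifen on cells without the recombinase is not analysed here, so its own effect and that of the deletion cannot be told apart. All cultures were passaged 5 times in Ham F10 with 20% FBS and bFGF (2 ng/ml) and then held for 24 hours in DMEM with 2% HS, which starts differentiation. The sources used here do not give the dose of tamoxifen, the share of recombined cells or the age of the mice.

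Ribosomes are assembled in the nucleolus. RNA polymerase I transcribes the precursor of the large ribosomal RNAs, small nucleolar ribonucleoproteins (snoRNPs) modify and fold it, and separate sets of assembly factors build the small and the large subunit. Myc, a bHLH transcription factor that binds E-boxes as a dimer with Max, is a known activator of many of these genes and of Odc1 and Srm in polyamine synthesis. Myc is a classical beta-catenin target in intestinal epithelium, and ribosome production is known to slow when myoblasts leave the cell cycle.

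Values are log2 expression, and a difference is activated minus control on that scale. Array medians lay between 4.08 and 4.37 over all genes and the SD within an array between 1.72 and 2.13. Of 9 measured myoblast markers 6 were higher and 3 lower (median 0.38): Myod1 was between 8.64 and 10.23 in all arrays, Pax7 between 7.08 and 8.39, and Myf5 between 4.04 and 5.46. At an unadjusted p under 0.05 Des, Cdh15, Itga7 and Ncam1 were higher (by 1.56, 1.03, 0.98 and 0.86) and Vcam1 differed by -1.38. Among proliferation genes, 9 of 9 measured had a lower mean with activation (median difference -1.60), and their median level was 7.0 to 8.4 in control and 5.0 to 6.8 in activated arrays. Of 14 muscle differentiation genes 13 were higher, with a median of 1.61 (0.97 without control replicate 3). Markers of macrophages and leukocytes were lower in 8 of 9 cases, with a median level of 4.04 to 4.52 in control and 3.47 to 3.72 in activated arrays. Endothelial markers were lower in 8 of 10 cases (2.88 to 3.32 against 2.80 to 3.13) and fibroblast markers in 7 of 9 (3.70 to 4.26 against 3.75 to 4.38). Pecam1, Ptprc and Pdgfra, which define these 3 cell types, had group means between 2.47 and 3.08, and no marker was at 0. Other markers of the same lists were brighter: group means were 9.30 and 9.18 for Pdpn, 7.09 and 6.14 for Col3a1, and 5.75 and 5.69 for Cd68 (control, then activated). Thy1, in the fibroblast list, was higher by 1.17 (limma, unadjusted p = 0.0225). The part of these markers in the results for the members was not tested. In these bulk cultures, fewer cells of a type and less RNA per cell cannot be told apart.

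Myc and the ribosome biogenesis genes showed no common shift between activated and control cultures. Of the 46 members 25 were higher (54.35%, against 40.3% of all genes) and 21 lower. The median difference was 0.06, against -0.08 over all genes. Differences ran from -0.47 for Myc to 1.20 for Nop10, and 43 members differed by less than 2-fold. No member passed an adjusted p of 0.05 (limma, adjusted p from 0.315 to 1.00), as was the case for 0% of all 23279 genes. At an unadjusted p under 0.05 there were 3 members, the small-subunit factors Rrp12, Imp4 and Bysl, all higher (6.52% of members, against 4.44% of all genes higher and 3.42% lower). Of genes with a mean of at least 5, which include 44 of the 46 members, 64.8% were higher. In a fit of those genes alone, 7.19% were higher at that level, and so was 1 of the 44 members, Rrp12. With the replicate number as a block, 0 members passed after adjustment (0.133% of all genes did; smallest adjusted p of a member 0.113). In that fit 8 were higher and 0 lower at an unadjusted p under 0.05 (17.4% of members, against 9.63% of all genes higher and 7.01% lower). The 8 were Rrp12, Imp4, Bysl, Rrn3, Polr1a, Nop10, Nop16 and Ddx18. After quantile normalization the same fit gave 4 higher (Rrn3, Rrp12, Bysl and Nop16) and 6 lower (Nop56, Nop58, Ncl, Npm1, Utp20 and Wdr43), against 7.05% and 6.7% of all genes. Without the block, quantile normalization gave 2 higher and 3 lower (4% and 3.61% of all genes), and cyclic loess gave 2 and 3 (4.2% and 3.72%). As deposited and without the block, the 3 became 1 when control replicate 1, control replicate 3 or activated replicate 2 was left out, and Rrp12 was under that level each time.

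The groups did not overlap in 9 members. All activated arrays lay above all control arrays for 5 of them (10.9%, against 5.4% of all genes), and below for 4 (8.70%, against 7.4%). Between arrays of the same number, 11 members were higher in each of the 3 pairs (23.9%, against 16.6% of all genes) and 7 lower in each (15.2%, against 25%). These shares are over all genes, while 44 of the 46 members have a mean of at least 5. Among genes of that level 64.8% were higher, against 40.3% of all genes. Shares for genes of like level are not given here for these counts or for the block fit. A miss of the threshold does not show that a gene was unchanged. In the fit without the block, the 95% confidence interval of the difference stayed within 2-fold in both directions for 25 of the 46. This is a share of 54.3%, and over all genes the share was 53.3%.

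**Figure D1:**
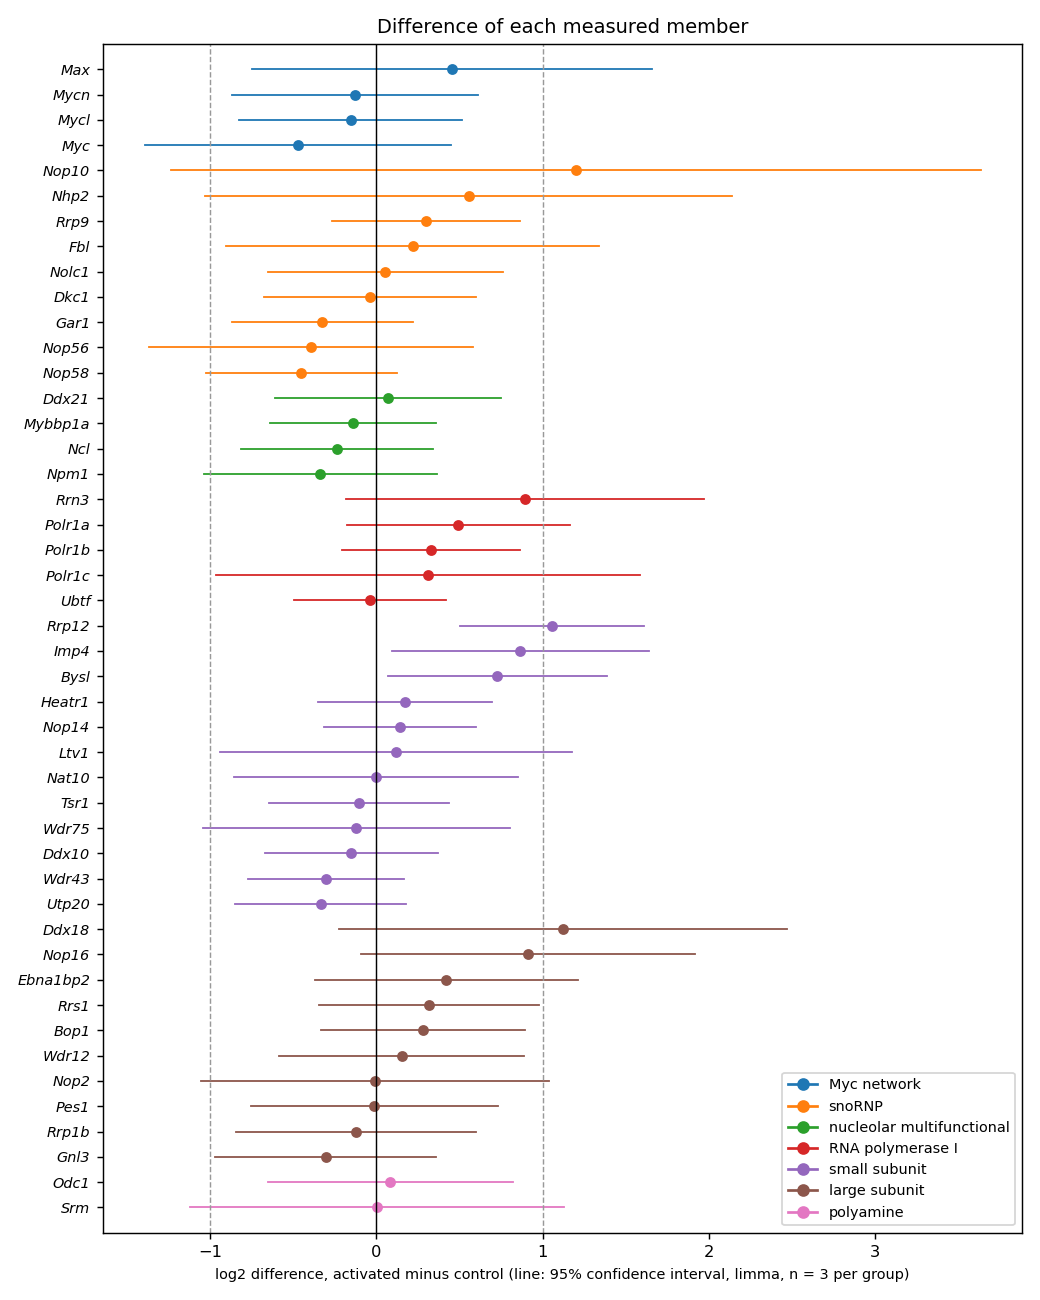
Log2 difference (activated minus control) of each of the 46 measured members with limma's 95% confidence interval (lines, 3 arrays per group), coloured by role; dashed lines mark a 2-fold difference. Intervals of all but Rrp12, Imp4 and Bysl include 0.

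For many members the sign depended on how the arrays were scaled. As deposited, genes with a mean log2 value of at least 5 had a median difference of 0.20, and 44 of the 46 members are among them. After quantile normalization 19 members were higher (41.3%, against 48.2% of all genes), with a median of -0.13. After centring each array on its median 34 were higher, with a median of 0.19, and so were 55.65% of all genes. This centring alone moved the median of all genes from -0.08 to 0.04. Over 16 alternative settings, which include leaving out cultures, 13 members stayed higher in each that held them and 9 stayed lower, while 24 changed sign at least once. The block, the trended robust prior and leaving out dim genes cannot turn a sign, since they leave each difference as it is. Some of the 24, such as Myc and Max, turned only when cultures were left out and not by scaling.

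**Figure D2:**
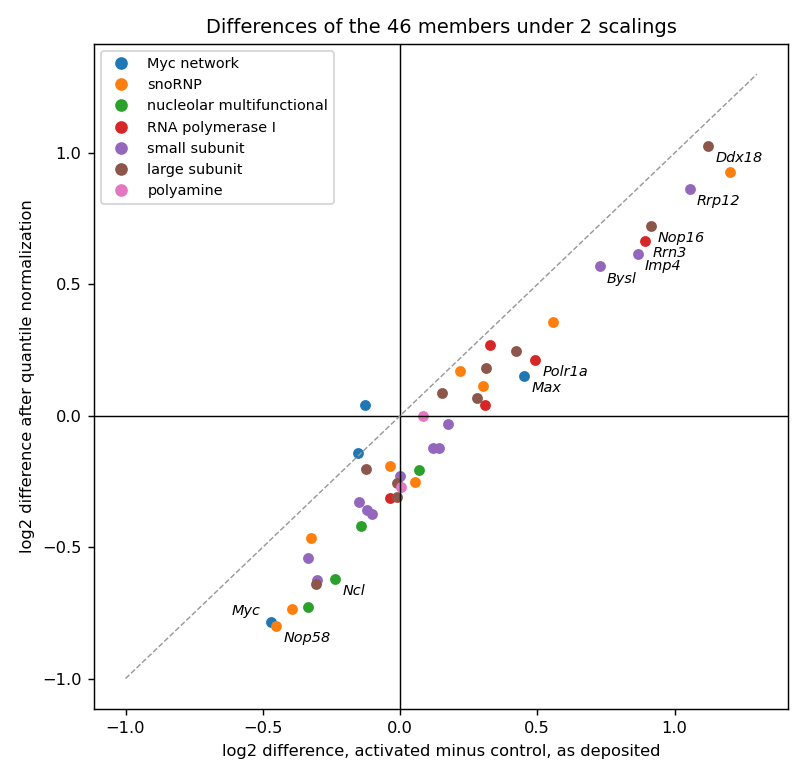
Log2 difference of each of the 46 members as deposited (x axis) against the same difference after quantile normalization (y axis), coloured by role; the dashed line marks equality. All members but Mycn and Mycl lie below the dashed line, and Rrp12 is at 1.06 and 0.86.

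In the Myc network no gene separated the groups. Myc (Entrez 17869) measured 8.30, 9.26 and 9.23 in the controls and 8.48, 7.85 and 9.04 in the activated cultures, in the order of the replicate numbers, as in all such series of values here. The groups overlapped, activated replicate 2 was the lowest array, and the pairs differed by 0.19, -1.41 and -0.19. The difference was -0.47 ± 0.39 (SE; 95% interval -1.39 to 0.45; limma, adjusted p = 0.762). It was 0.0002 without pair 2 and -0.79 after quantile normalization, so its size rests largely on that pair.

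Max (17187), the obligate partner of Myc, was at 7.51, 8.56 and 7.23 in control and at 7.25, 8.44 and 8.96 in activated cultures. Its difference of 0.45 ± 0.51 (SE; adjusted p = 0.811) came from pair 3 (1.74), and it was -0.19 without that pair. Mycl (16918), the L-Myc paralog, was at 5.30, 4.64 and 4.42 against 4.40, 4.67 and 4.82. Mycn (18109), the N-Myc paralog, was at 3.73, 2.99 and 3.39 against 3.75, 2.83 and 3.14. Both pairs of groups overlapped. Their differences were -0.15 ± 0.29 and -0.13 ± 0.32 (SE), and that of Mycn turned to 0.043 after quantile normalization. Whether the Mycn signal is above background was not tested, since the sources used here hold no detection calls.

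**Figure D3:**
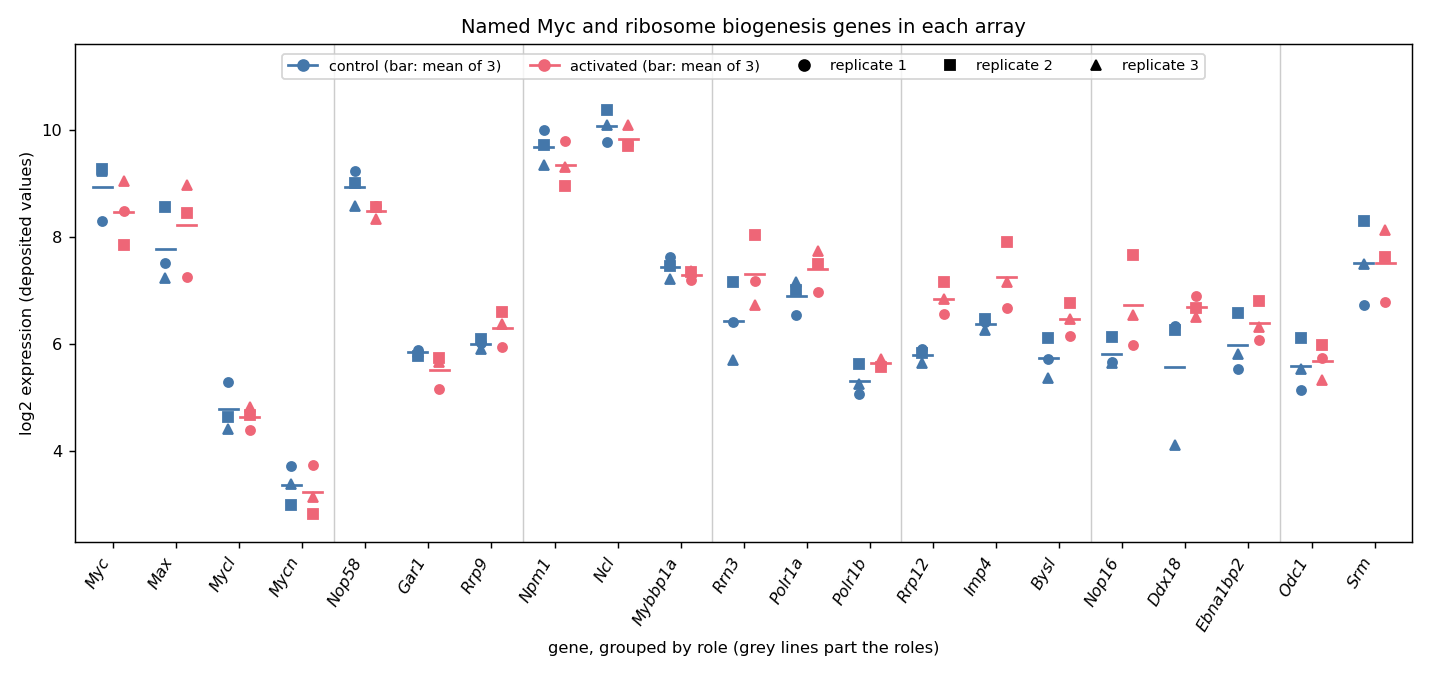
Deposited log2 expression (y axis) of 21 members in each array, with controls on the left and activated cultures on the right of each gene; bars are means of 3 and marker shapes give the replicate number. The activated arrays of Rrp12, Imp4 and Bysl all lie above the control arrays, and control replicate 3 of Ddx18 (4.11) stands apart from the other 5.

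Promoters of the members were searched for the canonical E-box CACGTG, which reads the same on both strands. RefSeq windows (GRCm38.p6) of 300 bases, from 250 before to 50 after a start, were held for 39 of the 46 members, all but Myc, Fbl, Npm1, Rrp12, Bop1, Rrs1 and Srm. Of these 39, 10 held the motif (25.6%), against 8.09% of the 27025 genes with such windows. The 10 with the motif had a median difference of -0.01 (4 higher) and the 29 without it one of 0.07 (16 higher), and after quantile normalization the medians were -0.28 and -0.12. A match describes the sequence and is not evidence of binding.

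These stretches are shown because they hold each E-box that lies far enough before a start to be printed with 30 bases on either side. The E-box is in capitals, and each stretch reads 5′ to 3′ on the strand of the gene. They lie at chr1:34439678-34439743 (plus strand, Imp4), chr6:125131793-125131858 (plus, Nop2), chr16:13780454-13780519 and chr16:13780621-13780686 (plus, Rrn3). Rrn3 holds 2 E-boxes, 215 and 48 bases before its start.
Imp4: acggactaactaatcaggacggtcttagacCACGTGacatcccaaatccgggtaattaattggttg
Nop2: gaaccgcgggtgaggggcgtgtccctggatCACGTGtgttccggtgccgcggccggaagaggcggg
Rrn3 distal: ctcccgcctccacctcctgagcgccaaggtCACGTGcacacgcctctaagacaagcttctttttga
Rrn3 proximal: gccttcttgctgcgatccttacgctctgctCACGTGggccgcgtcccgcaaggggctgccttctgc
Of these 3 genes, Rrn3 and Imp4 differed by 0.89 and 0.87 and Nop2 by -0.01, and none passed the test over all genes.

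RNA polymerase I genes were the role group with the largest median difference, 0.33, and 4 of its 5 members were higher. Rrn3 (106298), the factor that makes RNA polymerase I competent to start transcription, was at 6.41, 7.15 and 5.70 in control and at 7.18, 8.04 and 6.73 in activated cultures. Each activated array exceeded its own numbered control, by 0.76, 0.89 and 1.04. The groups overlapped, since control replicate 2 (7.15) lay above activated replicate 3 (6.73). The difference was 0.89 ± 0.46 (SE; limma, adjusted p = 0.689, and 0.116 with the block), and 0.53 without control replicate 3. Its promoter is the one with 2 E-boxes printed earlier. Polr1a (20019), the largest subunit of the enzyme, was at 6.54, 7.01 and 7.17 against 6.98, 7.49 and 7.73, and its pair differences were close to each other (0.44, 0.48 and 0.56). Polr1b (20017), the second largest subunit, was at 5.07, 5.64 and 5.25 against 5.64, 5.58 and 5.72, with overlap. Polr1c, a subunit shared with RNA polymerase III, differed by 0.31 ± 0.55 (SE). Ubtf, the factor that bends and marks active ribosomal DNA, differed by -0.04 ± 0.20 (SE), with an interval from -0.49 to 0.42. After quantile normalization the group median was 0.21, and it ranged from 0.20 to 0.70 when replicates were left out.

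Among the 12 small-subunit factors 6 were higher and 6 lower (median 0.06, and -0.18 after quantile normalization), and the members that separated the groups went both ways. Rrp12 (107094), needed for processing and export of the subunits, was at 5.90, 5.83 and 5.65 in control and at 6.55, 7.16 and 6.84 in activated cultures. Every activated array was higher, with a gap between the groups larger than the spread within the controls. The difference was 1.06 ± 0.24 (SE), or 2.08-fold, with an interval from 0.50 to 1.61 (unadjusted p = 0.00257, adjusted p = 0.315, limma). Its unadjusted p was under 0.05 in each of the 16 alternatives, and its adjusted p was above 0.05 in all of them, with 0.113 the lowest.

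Imp4 (27993), a component of the Mpp10 complex on the U3 snoRNP, was at 6.41, 6.47 and 6.27 against 6.67, 7.91 and 7.16. All activated arrays were higher, activated replicate 2 the most, and the difference of 0.87 ± 0.33 (SE; adjusted p = 0.588) was 0.53 without it. Bysl (53414), bystin, a late factor of 40S maturation, was at 5.72, 6.11 and 5.36 against 6.15, 6.77 and 6.46. The groups were apart by little, since control replicate 2 came close to activated replicate 1, and the difference was 0.73 ± 0.28 (SE; adjusted p = 0.595).

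Utp20 and Wdr43, early-acting factors of the small-subunit processome named after their values were seen, lay in the opposite direction. Wdr43 was at 8.32, 8.55 and 8.38 against 8.13, 8.03 and 8.19, and Utp20 at 6.59, 6.83 and 6.60 against 6.39, 6.10 and 6.53. Both had every activated array below every control array, with differences of -0.30 ± 0.20 and -0.33 ± 0.22 (SE). At an unadjusted p under 0.05 they were lower after quantile normalization (-0.62 and -0.54). Nop14, a scaffold of the same particle, was separated the other way by a small difference, 0.14 ± 0.20. Nat10, which acetylates 18S rRNA, differed by less than 0.01 with an interval from -0.85 to 0.85. Heatr1, Ltv1, Tsr1, Wdr75 and Ddx10, which also act in small-subunit assembly, overlapped between groups, with differences from -0.15 to 0.17.

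The large-subunit factors had 6 of 10 members higher and a median of 0.22, which was 0.08 after quantile normalization. Ddx18 (66942), an RNA helicase, was at 6.34, 6.25 and 4.11 in control and at 6.91, 6.67 and 6.51 in activated cultures. The groups did not overlap, but control replicate 3 was far below the rest. The difference of 1.12 ± 0.58 (SE; adjusted p = 0.688) was 0.40 without that culture. Nop16 (28126), a 60S assembly factor, was at 5.66, 6.13 and 5.65 against 5.97, 7.67 and 6.54. Activated replicate 2 led here too, and the difference of 0.91 ± 0.43 (SE) was 0.44 without it. Ebna1bp2 (69072), also a 60S assembly factor, was at 5.54, 6.58 and 5.81 against 6.07, 6.81 and 6.31, higher in each pair with overlapping groups (0.42 ± 0.34, SE).

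Pes1, Bop1 and Wdr12 form the PeBoW complex, which processes the precursor of 28S rRNA. Their differences were -0.01 ± 0.32, 0.28 ± 0.26 and 0.15 ± 0.31 (SE). Bop1 was higher by 0.27 to 0.30 in each pair, while Pes1 and Wdr12 changed sign between pairs. Nop2, a 28S rRNA methyltransferase, differed by -0.01 and the nucleolar GTPase Gnl3 (nucleostemin) by -0.31. Rrs1 and Rrp1b differed by 0.31 and -0.12.

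The snoRNP proteins did not move as one group (5 of 9 higher, median 0.06, and -0.19 after quantile normalization). Box C/D particles guide methylation of rRNA through the methyltransferase fibrillarin (Fbl) with Nop56 and Nop58. Nop58 (55989) was at 9.23, 9.01 and 8.57 in control and at 8.57, 8.57 and 8.33 in activated cultures. Every activated array was below every control array, though by less than 0.01 for control replicate 3. The difference was -0.45 ± 0.25 (SE; limma, adjusted p = 0.696), and -0.80 after quantile normalization. Nop56 was lower in each pair (-0.31, -0.27 and -0.60) with overlapping groups, and Fbl differed by 0.22 ± 0.48 (SE).

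Box H/ACA particles guide pseudouridylation through dyskerin (Dkc1) with Gar1, Nhp2 and Nop10. Gar1 (68147) was at 5.89, 5.78 and 5.86 against 5.17, 5.73 and 5.66, lower in every activated array by a small margin in pair 2 (-0.33 ± 0.23, SE). Nop10, named after its values were seen, varied most between cultures, at 7.13, 9.22 and 5.45 in control and 7.49, 10.18 and 7.72 in activated cultures. Its difference of 1.20 ± 1.04 (SE) was smaller than that spread, and 0.29 without control replicate 3. It was higher in each pair (0.37, 0.96 and 2.28), and with the replicate block the SE was 0.38 and the adjusted p 0.218. Nhp2 was also low in that culture (5.24, against 7.08 and 6.90), with a difference of 0.56 ± 0.68. Dkc1 differed by -0.04 ± 0.27 (SE). Rrp9 (27966), a protein of the U3 snoRNP, was at 6.02, 6.10 and 5.90 against 5.95, 6.60 and 6.38, and the groups overlapped through activated replicate 1. The snoRNP chaperone Nolc1 differed by 0.06 ± 0.30.

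Among the multifunctional nucleolar proteins, nucleophosmin (Npm1, 18148), a chaperone of ribosome assembly, was at 9.99, 9.72 and 9.34 in control and at 9.80, 8.94 and 9.30 in activated cultures. Nucleolin (Ncl, 17975), which binds nascent pre-rRNA, was at 9.77, 10.36 and 10.09 against 9.73, 9.69 and 10.08. In both genes the activated array was the lower one of each pair, most in pair 2 (-0.77 and -0.67), and the groups overlapped. The differences were -0.34 ± 0.30 and -0.24 ± 0.25 (SE; adjusted p = 0.773 and 0.797), and -0.73 and -0.62 after quantile normalization. Mybbp1a (18432), a nucleolar Myb-binding protein, was at 7.63, 7.46 and 7.22 against 7.20, 7.34 and 7.36. The helicase Ddx21 differed by 0.07 ± 0.29, or -0.20 after quantile normalization.

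For the polyamine enzymes no difference beyond the spread was seen. Odc1 (18263), the rate-limiting enzyme of polyamine synthesis, was at 5.15, 6.11 and 5.54 in control and at 5.74, 5.99 and 5.32 in activated cultures. Srm (20810), spermidine synthase, was at 6.74, 8.30 and 7.49 against 6.79, 7.62 and 8.14. Both overlapped fully. The intervals of their differences were -0.65 to 0.82 and -1.12 to 1.13, and both signs turned after quantile normalization (-0.0018 and -0.27).

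Arrays differed in these genes along the replicate numbers as well as within the groups. Control replicate 2 and activated replicate 2 each held the highest value of 14 members, 30.4% each, against 8.87% and 16.2% of all genes. Over all genes these arrays had the widest spread of their groups. Their SD was 2.02 and 2.13, against 1.72 and 1.76 in the other controls and 1.89 and 1.96 in the other activated arrays. Their medians, 4.19 and 4.08, were the lowest of each group. Whether other bright genes are also highest there was not tested. The lowest value fell in control replicate 3 for 14 members, 30.4% against 19.6% of all genes. The median level of the members was 6.48, 6.95 and 6.35 in control and 6.64, 7.23 and 6.85 in activated cultures, so replicate 2 was the highest array of each group.

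The other genes of these pathways, taken from lists that exclude the members, are described next. For each list the shares over all genes at an unadjusted p under 0.05 were 4.44% higher and 3.42% lower. With the replicate block they were 9.63% and 7.01%. Of 80 measured assembly factors of both subunits 61 were higher (76.25%, median 0.21), against 40.3% of all genes. Of genes with a mean of at least 5, which include 78 of the 80, 64.8% were higher (median 0.20). After quantile normalization 41 of the 80 were higher (median 0.01), against 48.2% of all genes. Without activated replicate 2 there were 45 (median 0.06), against 43.5% of all genes. At an unadjusted p under 0.05, 2 were higher, Rrp36 (0.79 ± 0.27, SE) and Eif6 (1.55 ± 0.51), and 0 lower. With the replicate block 7 were higher and 0 lower at that level, against 9.63% and 7.01% of all genes. Eif6, which keeps the 60S subunit from joining early, was at 5.40, 6.45 and 5.35 in control and at 6.27, 8.10 and 7.49 in activated cultures, with overlap. Next by p came Nol10 (0.43) and Nip7 (0.77). None of 11 other RNA polymerase I factors reached that level (Polr2e differed by 0.92 and Taf1d by -0.43), and with the block 2 were higher. Of 21 RNA polymerase III factors 1 did, Gtf3c4 (0.82 ± 0.33), ahead of Polr3f (0.45).

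Cytoplasmic ribosomal protein genes, 53 of 79 with a row, were evenly divided, 28 higher and 25 lower (median 0.15, and -0.05 after quantile normalization). Rpl3, a core protein of the large subunit, was at 6.32, 4.60 and 5.60 in control and at 3.91, 3.41 and 4.31 in activated cultures. Without the block it was the only gene of that list past an unadjusted p of 0.05 (-1.63 ± 0.46, SE; limma, adjusted p = 0.405). With the block 3 were higher and 6 lower at that level, among them Rps25, named after its values were seen, which differed by -0.97, -0.88 and -1.25 in the pairs (adjusted p = 0.099 with the block). Fau differed by 0.67. These genes have many processed copies in the genome, and the sources used here do not say how the probes treat them. The activated mean of Rpl3, 3.88, lay below the median of every array (4.08 to 4.37). Of the 53 genes 36 had a mean of at least 5. Whether the dimmer signals, that of Rpl3 among them, are above background was not tested.

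In the wider Myc and Max network 1 of 17 genes was higher and 1 lower at an unadjusted p under 0.05, and 3 and 1 with the block. Mxd3, a Max partner that opposes Myc, differed by -0.92 ± 0.36 (SE), and Usp28, a deubiquitinase that acts on Myc, by 1.09 ± 0.38. Usp28 was at 5.73, 5.97 and 6.26 in control and at 7.50, 7.50 and 6.24 in activated cultures, so pair 3 showed no increase. With the block and without pair 3, the pair with no increase, its difference was 1.65 (limma, adjusted p = 0.0299). In that setting 501 of the 23279 genes passed an adjusted p of 0.05, against 0 in the main fit. The adjusted p of Usp28 was 0.141 or more in the other settings. Among 25 Myc target genes outside the nucleolus, 3 were higher and 1 lower at that level. The strongest by p were Slc3a2 and Slc7a5, the 2 chains of the large neutral amino acid transporter. Slc3a2 was at 6.81, 7.50 and 6.57 in control and at 7.95, 8.52 and 8.40 in activated cultures. Slc7a5 was at 7.81, 8.64 and 7.47 against 8.86, 9.62 and 9.46. Neither overlapped between groups, and the differences were 1.33 ± 0.31 and 1.34 ± 0.36 (SE; adjusted p = 0.325 and 0.397). Of 9 other polyamine genes 1 was higher at that level: Sms, spermine synthase, at 1.60, 6.66 and 3.11 against 6.02, 7.92 and 6.02. Its controls differed far more from each other than the group means did, and Azin1 came next (0.88 ± 0.49). With the block 2 genes of that list were higher at that level.

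**Figure D4:**
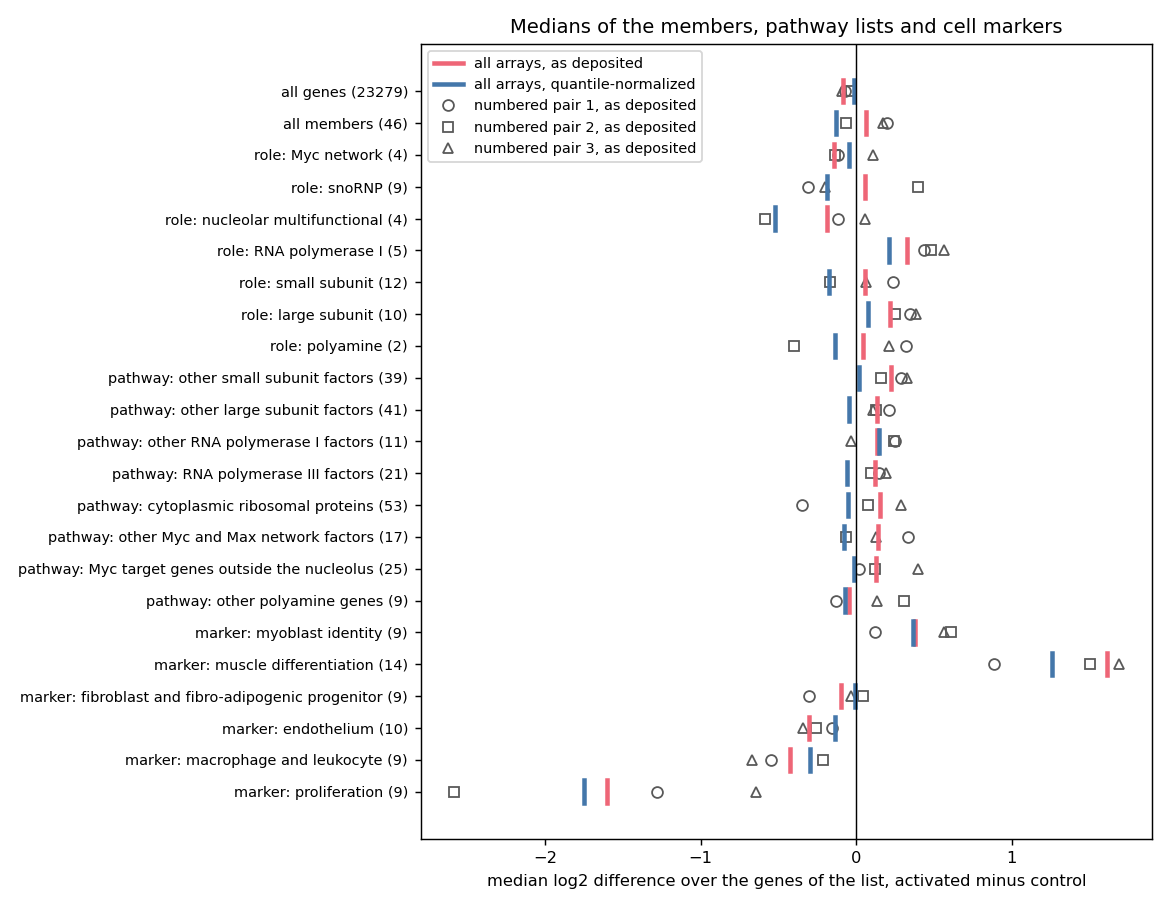
Median log2 difference over the genes of each list (number of measured genes in brackets), as deposited (red), after quantile normalization (blue) and within each numbered pair (open symbols). The members lie at 0.06 and -0.13, between the proliferation genes at -1.60 and the muscle differentiation genes at 1.61.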

How the data were processed

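Biotin-labelled target from 100 ng of total RNA was hybridised to Affymetrix whole-transcript arrays, 1 per culture, per the labels' protocols. The values the authors deposited are on a log2 scale. The submitters' processing notes name RMA and Partek, without versions or roles, and the sources used here name neither the array design nor a genome build. Of 24479 probe sets, the platform annotation gave 1 symbol to 23281 and none to 1198. For 2 symbols with several probe sets the one with the highest mean was kept, leaving 23279 genes.

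From these values limma 3.58.1 (R 4.3.3) fitted group as the only term to all genes, with two-sided moderated tests and Benjamini-Hochberg adjustment over all genes and no filter on dim genes. The code was tested on simulated data. Lists are described by counts and medians, with no test over a list. Intervals are limma's 95% confidence intervals, and the number of arrays limits the precision. The labels state independent cultures but not whether they came from separate animals, so the spread behind a p-value is that between these cultures, which may be technical.

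Both groups are numbered 1 to 3 in the sample titles. Arrays of the same number deviated together from their group means (correlation over genes 0.38, 0.49 and 0.45, all above 0.1). Arrays of different numbers were not compared in this way. Replicate 2 had the widest spread of values in both groups, so a shared origin and a difference in scale between arrays cannot be told apart. Differences within numbered pairs are described, and a fit with the replicate block was added as an alternative. SEs, intervals and p-values given without mention of the block come from the main fit, which ignores this pairing. The SE with the block was 0.19 in place of 0.46 for Rrn3, and 0.290 in place of 0.287 for Mycl. Counts of calls from the block fit are given for the members as a whole and for the other gene lists, where they moved by over 1.5 times. They are not given for each role group or for the cell markers.

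The genes named were all Myc network members, the 3 with the smallest p in each other role group (both of the polyamine group), any member past an adjusted p of 0.05 (none was), the members with the highest and lowest mean (Ncl and Mycn), and the 2 genes with the smallest p in each pathway list. Other members are named to account for the whole list, after their values were seen. Members, lists and roles were chosen with earlier results of these data known. Alternatives were median centring, quantile normalization, cyclic loess, leaving out genes with a mean under 5, the replicate block, a trended robust prior and leaving out each culture or pair.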

Additional observations from a re-analysis of the deposited data

How the results depend on the processing

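The count of members past an adjusted p of 0.05 was 0 in all 16 alternatives. At an unadjusted p under 0.05, the 3 higher members became 8 with the replicate block (9.63% of all genes). They became 4 with the block after quantile normalization (7.05% of all genes). There was 1 with genes of mean under 5 left out (7.19% of the genes kept) and 1 with the trended robust prior (3.69% of all genes). With replicates left out they numbered 1 to 8 (1 without control replicate 1, control replicate 3 or activated replicate 2). Lower members at that level went from 0 to 3 after quantile normalization or cyclic loess, to 6 with the replicate block after quantile normalization (3.61%, 3.72% and 6.7% of all genes were lower in these fits), and were 0 to 1 with replicates left out. Members above all controls numbered 3 after median centring, quantile normalization or cyclic loess and 6 to 11 with replicates left out. Those below all controls numbered 0 after median centring and 4 to 9 with replicates left out, where fewer arrays make separation easier. Scaling moved the median of the nucleolar proteins to -0.52 (quantile, also with the block) and -0.60 (loess), the small-subunit factors to -0.18 and -0.17, the other large-subunit factors to -0.044 and the wider Myc network to -0.077 (both quantile, with or without the block). With replicates left out, the RNA polymerase I members ranged from 0.20 to 0.70, the other RNA polymerase I factors from -0.21 to 0.22, and the ribosomal proteins from -0.23 to 0.33. Signs turned for Mycn (8e-04 centred, 0.043 quantile, 0.064 loess), Odc1 (-0.0018 quantile) and Srm (-0.27 quantile, -0.31 loess). With replicates left out the ranges were -0.80 to 0.0002 for Myc, -0.19 to 0.94 for Max, -0.43 to 0.22 for Mycl, -0.38 to 0.079 for Mycn, -0.28 to 0.0061 for Mybbp1a, -0.17 to 0.34 for Odc1 and -0.38 to 0.40 for Srm. Leaving out one culture gave -0.34 to 0.10 for Mycl and -0.14 as the lowest for Odc1, and leaving out a pair with the block gave -0.32 to -0.020 where the sign of Srm turned. The causes were not tested. With 3 arrays per group the median interval half-width of the members was 0.70, a width not adjusted over genes. After adjustment, differences of 2-fold and more can be missed as well. Rrp12 at 2.08-fold had an adjusted p of 0.315 (limma). No gene passed in the main fit, where differences over all genes ran up to 4.40.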

Other observations

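Other gene groups of protein synthesis were chosen by symbol after the data were seen. Of 76 mitochondrial ribosomal protein genes 71 had the higher mean in the activated group (93.4%, against 40.3% of all genes and 64.8% of genes with a mean of at least 5), with a median difference of 0.55 (69 and 0.39 after quantile normalization). Leaving out control replicate 3 gave 56 (median 0.28), and leaving out activated replicate 2 gave 58 (median 0.23). None passed an adjusted p of 0.05 or an unadjusted p of 0.05 (limma), and 22 were higher at the unadjusted level with the replicate block, against 9.63% of all genes.

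Of 18 cytoplasmic aminoacyl-tRNA synthetase genes, whose products charge tRNAs for translation, 16 were higher (88.9%). The share was 40.3% over all genes and 64.8% over genes with a mean of at least 5. The median difference of the 18 was 0.51, and 0.22 after quantile normalization. Aars, the alanyl-tRNA synthetase, was at 6.23, 6.64 and 6.49 in control and at 6.70, 7.78 and 7.32 in activated cultures, a difference of 0.81 ± 0.31 (SE; limma, adjusted p = 0.592). It was the only one of the 18 past an unadjusted p of 0.05. With the replicate block 8 were higher at that level, against 9.63% of all genes. Among 18 snoRNA host genes 8 were higher and 10 lower (median -0.04, and -0.28 after quantile normalization). At an unadjusted p under 0.05, 1 was lower, Snhg4 (-0.59 ± 0.24, SE; limma, adjusted p = 0.618), against 3.42% of all genes. With the block 1 was higher and 3 lower at that level, against 9.63% and 7.01% of all genes. Gas5, a host of box C/D snoRNAs, was at 8.63, 8.80 and 9.65 against 7.96, 8.54 and 8.40, below every control array (-0.73 ± 0.33, SE; adjusted p = 0.647). It did not have the smallest p of the list. No test compared these lists with the members.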
